A study of Mus musculus with 6 samples.

Results

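The MHC class II antigen presentation genes considered here were 10 genes picked by symbol from the gene table, and all 10 were present among its 55291 genes. They were the class II chain genes H2-Aa, H2-Ab1 and H2-Eb1, the peptide exchange genes H2-DMa and H2-DMb1, the invariant chain gene Cd74, the transactivator gene Ciita, and the costimulatory genes Cd80, Cd86 and Cd40. RNA-seq libraries had been made from marrow flushed out of mouse femurs, 1 library per mouse. The 3 wild types are named WT 1, 2 and 3, and the 3 P2rx7 knockouts A, B and C. All were aged 6 to 8 weeks, and values per library are given in these orders. P2rx7 encodes a cation channel opened by extracellular ATP. The labels give neither the strain, the sex, nor the design of the knockout allele, and name no treatment. In RNA from mixed cells, fewer cells of a type and less RNA per cell cannot be told apart.

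Class II molecules are pairs of an alpha and a beta chain that carry peptides from endosomes to the surface of antigen-presenting cells, where CD4 T cells read them. The invariant chain blocks the groove of new pairs and guides them to endosomes. There proteases cut it down, and the DM pair swaps its last fragment for a peptide. Transcription of the chain, invariant chain and DM genes is driven by the CIITA protein, which does not bind DNA itself. It docks on the RFX and NF-Y complexes, which sit on paired sequence elements named the X box and the Y box. CD80 and CD86 signal to T cells through CD28, and CD40 receives the CD40 ligand of T cells. In marrow, B cells, dendritic cells and some macrophages are the usual sources of class II.

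Libraries held 18716704 to 23575652 counts, and the precision is least for the genes with few counts. P2rx7 itself was at 10.1, 10.2 and 10.5 FPKM (counts scaled to exon length and library size) in wild types against 6.63, 6.37 and 6.24 FPKM in knockouts, so its transcript was reduced and not lost. On the log2 scale knockouts differed from wild types by -0.67 ± 0.05 (SE), and the adjusted p was 0.0109 by edgeR's quasi-likelihood test. Without B or C it was not called (adjusted p = 0.0763 and 0.0973). Of 7 erythroid markers all 7 stayed under 0.5 FPKM in every library, haemoglobin genes had at most 5 counts, and Slc4a1 had 0 counts, which allows up to 3 counts or 0.128 to 0.159 CPM (counts scaled to library size alone) in a library. Among 9 B cell markers 6 were under 0.5 FPKM throughout, Ms4a1 and Pax5 included, and of 8 T cell markers 6 were, with Cd3e at 0 counts. The 11 macrophage markers summed to 5679 to 5778 FPKM in wild types and 5726 to 6389 FPKM in knockouts. Counts of Gh, the growth hormone gene, numbered 54, 82 and 75 in wild types against 23, 0 and 0 in knockouts, so that of the knockouts only A had this trace.

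The class II chain genes had low transcript levels, and in each of them every knockout lay below every wild type. Such a separation held for 10.4% of all tested genes. No member passed the threshold of an adjusted p of 0.05 over all 15478 tested genes, of which 16, or 0.103%, did. H2-Aa encodes the alpha chain of the A molecule and lies on the minus strand of chromosome 17 at 34282744 to 34287823 (GRCm38). It had 36, 68 and 84 counts in wild types against 6, 12 and 17 in knockouts, or 0.472, 0.774 and 0.956 FPKM against 0.0713, 0.166 and 0.223 FPKM. The means were 0.734 ± 0.245 FPKM in wild types and 0.154 ± 0.0767 FPKM in knockouts (SD, n = 3). Knockout A was lowest, and the highest knockout was under the lowest wild type. The log2 fold change was -2.26 ± 0.40 (SE, 95% interval -3.19 to -1.34), with an adjusted p of 0.101 (edgeR).

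H2-Ab1 encodes the beta chain that pairs with the H2-Aa product and lies on the plus strand at 34257689 to 34269419 of chromosome 17. Its level was 2.39, 2.10 and 2.21 FPKM in wild types against 1.95, 1.46 and 1.34 FPKM in knockouts. The genotypes did not overlap, but knockout A was close to WT 2, with 111 against 125 counts. Its log2 fold change was -0.48 ± 0.16 (SE, 95% interval -0.86 to -0.11; adjusted p = 0.221, edgeR), smaller in size than that of its partner. On the FPKM scale the ratio of H2-Ab1 to H2-Aa was 5.05, 2.72 and 2.31 in the wild types and 27.4, 8.75 and 6.00 in the knockouts. H2-Eb1 encodes the beta chain of the E molecule (plus strand, 34305867 to 34316674). It was at 1.05, 1.18 and 1.49 FPKM in wild types against 0.627, 0.650 and 0.692 FPKM in knockouts. The 3 knockouts were close to each other and all below the wild types, and the log2 fold change came to -0.91 ± 0.20 (SE, 95% interval -1.37 to -0.45; adjusted p = 0.146, edgeR). Mice of some haplotypes make no E alpha chain, and H2-Ea had 1 count in WT 1 and 0 in the other libraries.

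**Figure D1:**
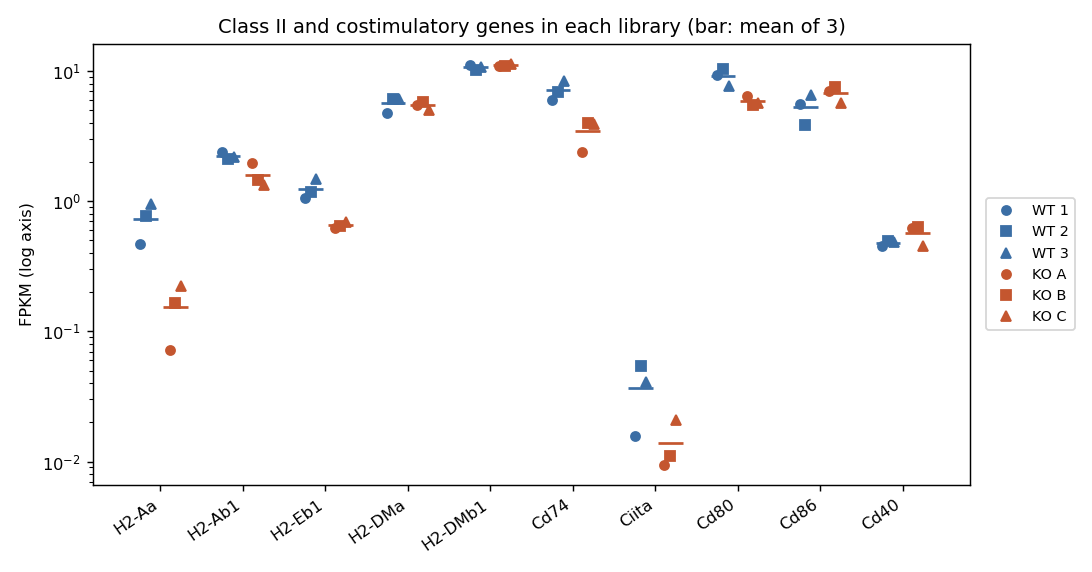
FPKM (log axis) of the 10 genes in each of the 3 wild-type (blue) and 3 knockout (orange) libraries, with bars for the mean of each genotype. H2-Aa, H2-Ab1, H2-Eb1, Cd74 and Cd80 have all 3 knockouts below all 3 wild types, while the other genes overlap.

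Promoter sequences are shown for H2-Aa and H2-Eb1, chains whose knockouts lay below the wild types, because both hold the paired elements of class II promoters. The 150 bases before each RefSeq gene start (GRCm38.p6) are given 5′ to 3′ on the gene's own strand, with an X box core and a Y box in capitals. They lie at chr17:34287824-34287973 (minus strand) and chr17:34305717-34305866 (plus strand).
H2-Aa: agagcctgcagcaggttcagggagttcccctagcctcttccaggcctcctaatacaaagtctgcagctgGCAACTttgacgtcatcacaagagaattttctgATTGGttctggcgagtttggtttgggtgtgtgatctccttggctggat
H2-Eb1: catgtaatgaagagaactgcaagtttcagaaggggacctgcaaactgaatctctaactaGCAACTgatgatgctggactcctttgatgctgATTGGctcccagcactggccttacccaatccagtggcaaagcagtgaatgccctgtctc
The Y box, read as ATTGG, begins 48 and 59 bases before the start in these promoters, and the X box core begins 81 and 91 bases before it. The gap between the elements is 27 and 26 bases. H2-DMb1, whose genotypes overlapped, holds such a pair too, 94 and 61 bases before its RefSeq start with a gap of 27 bases, so the pair was present in genes with and without separated genotypes.

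Of the 10 genes, 5 had a promoter in the RefSeq table that was searched, and these were Cd80, H2-DMa, H2-DMb1, H2-Aa and H2-Eb1. Each window ran from 250 bases before the start to 50 after it, and both strands were searched. The pattern GCAACNNNT followed on the same strand by ATTGG after a gap of 15 to 35 bases was found in H2-Eb1 alone of the 5, and in 0.259% of all 32851 promoters. A looser X box core, GNAACT, chosen after these promoters had been read, gave the pair in H2-Aa, H2-Eb1 and H2-DMb1 and in 0.916% of all promoters. By itself ATTGG was in 4 of the 5 genes and in 37.4% of all promoters. Neither TTCNNNGAA, the form of an interferon gamma activated site (8.30% of all promoters), nor GAAANNGAA, a core of the interferon-stimulated response element (8.56%), was in any of the 5. These matches describe letters in a window.

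Cd74, which encodes the invariant chain, had the highest level of the genes whose knockouts all lay below the wild types in the class II pathway proper. It was at 6.02, 6.92 and 8.39 FPKM in wild types against 2.39, 4.01 and 3.95 FPKM in knockouts, or 7.11 ± 1.20 against 3.45 ± 0.917 FPKM (SD, n = 3). Knockout A was again the lowest library, with 89 counts against 128 and 133 in the other knockouts and at least 203 in a wild type. In the same library the 10 neutrophil markers summed to 60.9 FPKM against 369.0 and 351.7 FPKM in B and C, and to 311.9, 118.6 and 403.1 FPKM in wild types. The monocyte genes Ly6c2 and Ccr2 had 112 and 216 counts in A, against 756 and 1011 in B and 559 and 829 in C. They were picked after their values were seen, and Cx3cr1 of the same list was instead highest in A among the knockouts. Over all libraries the log2 fold changes of Ly6c2 and Ccr2 were positive, opposite in sign to that of Cd74. All 7 monocyte markers, mostly Fn1, summed to 973 FPKM in A, 1008 and 1061 FPKM in B and C, and 1071, 1136 and 1281 FPKM in wild types. The part of these cells in the Cd74 and H2-Aa values was not tested. For Cd74 the log2 fold change was -1.04 ± 0.21 (SE, 95% interval -1.52 to -0.56), a ratio of 0.485, and the adjusted p was 0.125 (edgeR). The gene lies on chromosome 18 at 60803848 to 60812652.

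The DM genes did not share this pattern. H2-DMb1, the beta chain of the peptide exchange factor DM, was the most abundant of the 10 genes per length, at 11.2, 10.2 and 10.7 FPKM in wild types against 10.9, 10.96 and 11.35 FPKM in knockouts. The genotypes overlapped, and the 95% interval of the log2 fold change ran from -0.10 to 0.22 around 0.06 ± 0.07 (SE, adjusted p = 0.713, edgeR), so a change of the size seen in Cd74 lies outside it. H2-DMa, the alpha chain, was at 4.81, 6.16 and 6.12 FPKM in the wild types and 5.51, 5.79 and 5.06 FPKM in the knockouts, also overlapping, with an interval of -0.30 to 0.18 around -0.06 ± 0.10 (SE, adjusted p = 0.828). Their genes lie on chromosome 17 at 34153072 to 34160230 and at 34119541 to 34139101. Both values carry a limit from counting. Of the 50-base words of the H2-DMb1 transcript, 27.2% also occur in H2-DMb2, and 360 exon bases of H2-DMa are shared with Brd2, which lies on the opposite strand and reached 6007 counts. No source used here gives the use of strand in counting, so reads there cannot be told apart.

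**Figure D2:**
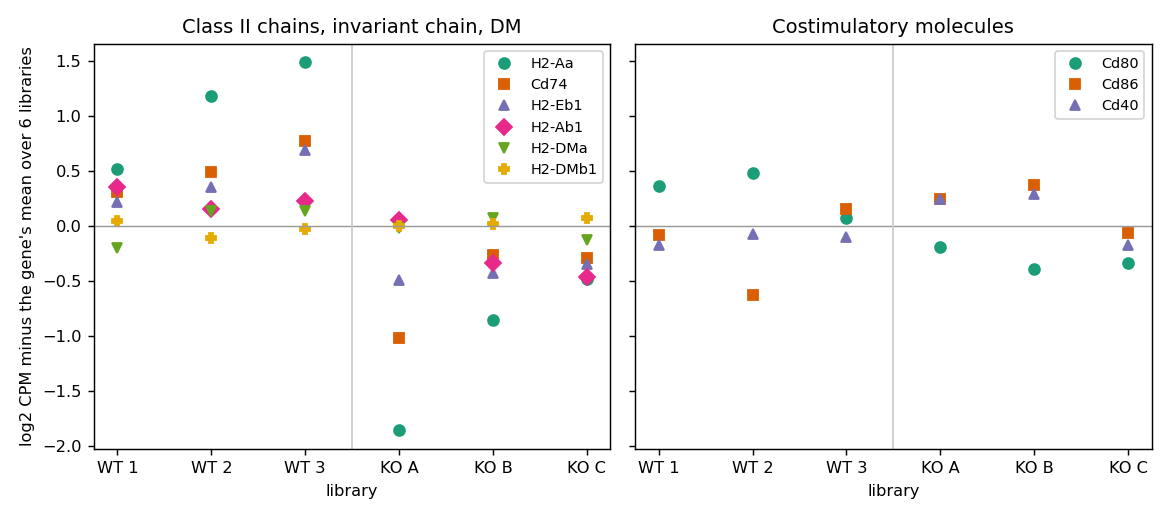
Log2 CPM of each gene minus its own mean over the 6 libraries, for the chain, invariant chain and DM genes (left) and the costimulatory genes (right). H2-Aa and Cd74 are lowest in knockout A, at -1.86 and -1.02, while H2-DMb1 stays between -0.11 and 0.07 in all libraries.

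Relative to their own means, the chain and invariant chain genes differed in how far apart the libraries lay. H2-Aa ran from -1.86 in knockout A to 1.49 in WT 3 on the centred log2 CPM scale, and Cd74 from -1.02 to 0.77 in the same libraries. Cd74 and H2-Eb1 had the most similar profiles of these genes outside the DM pair, with a root mean square difference of 0.24 over the 6 libraries. H2-Aa and Cd74 differed by 0.60 and H2-Aa and H2-Ab1 by 1.05. DM genes differed from each other by 0.18 and from H2-Aa by 1.14 and 1.21. These distances are descriptions over 6 libraries.

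Ciita, the gene of the transactivator, was near the limit of detection and did not pass the filter on low counts. It had 3, 12 and 9 counts in wild types against 2, 2 and 4 counts in knockouts, so the genotypes overlapped. Together these were 24 counts in wild types and 8 in knockouts, a ratio of 0.363 with an exact 95% binomial interval of 0.141 to 0.836 that covers counting error alone. Its locus at 10480059 to 10528418 of chromosome 16 shares 329 exon bases with Dexi on the opposite strand, which reached 347 counts, so even these few counts are uncertain.

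Among the costimulatory genes, all knockouts lay below all wild types in Cd80, while Cd86 and Cd40 overlapped between genotypes. Cd80, a ligand of CD28 and CTLA4, lies on chromosome 16 at 38455561 to 38496335. It was at 9.36, 10.3 and 7.71 FPKM in wild types against 6.41, 5.50 and 5.73 FPKM in knockouts. With 387 to 885 counts per library it was the best covered of the genes without overlap. The log2 fold change was -0.63 ± 0.11 (SE, 95% interval -0.88 to -0.37; adjusted p = 0.101, edgeR). Cd86, the other ligand of CD28 (chromosome 16, 36603869 to 36666081), was at 5.58, 3.86 and 6.61 FPKM in the wild types and 7.07, 7.61 and 5.65 FPKM in the knockouts. These overlapped, with WT 2 lowest and a log2 fold change of 0.35 ± 0.19 (SE, 95% interval -0.09 to 0.79; adjusted p = 0.402). On the FPKM scale the ratio of Cd80 to Cd86 was 1.68, 2.68 and 1.16 in the wild types and 0.908, 0.723 and 1.015 in the knockouts, so the knockout ratios were all below the wild-type ones. Cd40, the receptor for CD40 ligand (chromosome 2, 165055627 to 165072948), had 31 to 47 counts per library and overlapped between genotypes. It was at 0.477 ± 0.0212 FPKM in wild types and 0.570 ± 0.101 FPKM in knockouts (SD, n = 3; adjusted p = 0.536, edgeR).

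**Figure D3:**
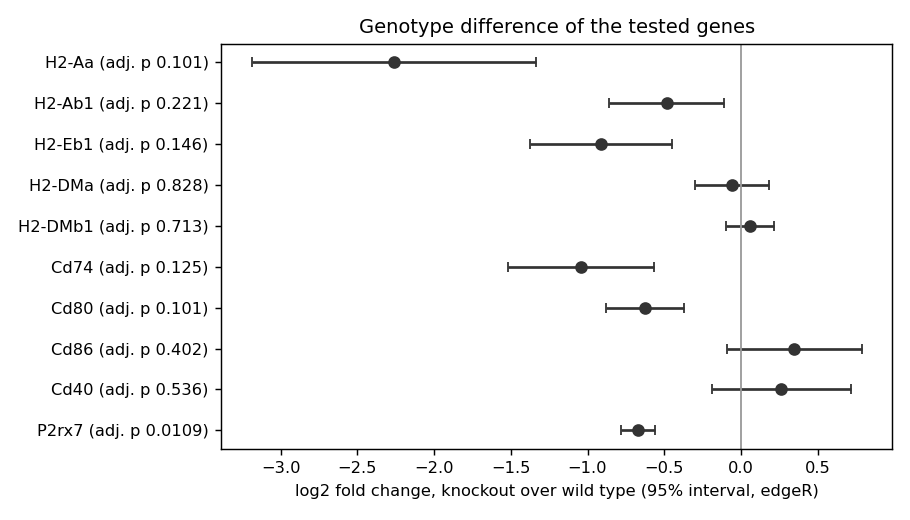
Log2 fold change of knockout over wild type with its 95% interval (edgeR, 3 against 3 libraries) for the 9 tested genes and P2rx7, with adjusted p beside each name. The intervals of H2-Aa, H2-Ab1, H2-Eb1, Cd74 and Cd80 lie below 0, but only P2rx7 has an adjusted p below 0.05.

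Across the 10 genes, 9 passed the filter and 0 were called by edgeR. At an unadjusted p below 0.05, 5 of the 9 were lower and 0 higher in knockouts, where 8.22% of all tested genes were lower at that level. The same 5 had all knockouts below all wild types, which held for 10.4% of all tested genes. The median log2 fold change of the 9 was -0.48, against 0.00 over all tested genes. Other tests placed some members past the threshold. DESeq2 called 3 members, H2-Aa (adjusted p = 0.000340), Cd74 (0.000579) and Cd80 (0.000347), and called 2.65% of the genes it tested. With edgeR on every gene with a count, 4 members were called, the same 3 and H2-Eb1 (adjusted p = 0.0253), where 3.2% of genes were. A limma test on log2(FPKM + 1) called 0 members, with 5 at an unadjusted p below 0.05, where 16% of the genes in that fit were.

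Single libraries bore on these values. Without WT 3, edgeR called Cd80 (log2 fold change -0.735, adjusted p = 0.0226) and 1.1% of all tested genes. Leaving out knockout B or C raised the adjusted p of H2-Aa to 0.416 and 0.234, with log2 fold changes of -2.33 and -2.64. With the presence of Gh as a term, the genotype effect rested on knockout A against the wild types, and the log2 fold change was -3.35 for H2-Aa (adjusted p = 0.481), -1.58 for Cd74 (0.230), -0.99 for H2-Eb1 (0.837), -0.51 for Cd80 (0.837) and -0.20 for H2-Ab1 (0.890). Hence the differences of H2-Aa, Cd74 and H2-Eb1 were at least as large in knockout A, the knockout library with Gh counts, while those of H2-Ab1 and Cd80 were smaller.

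**Figure D4:**
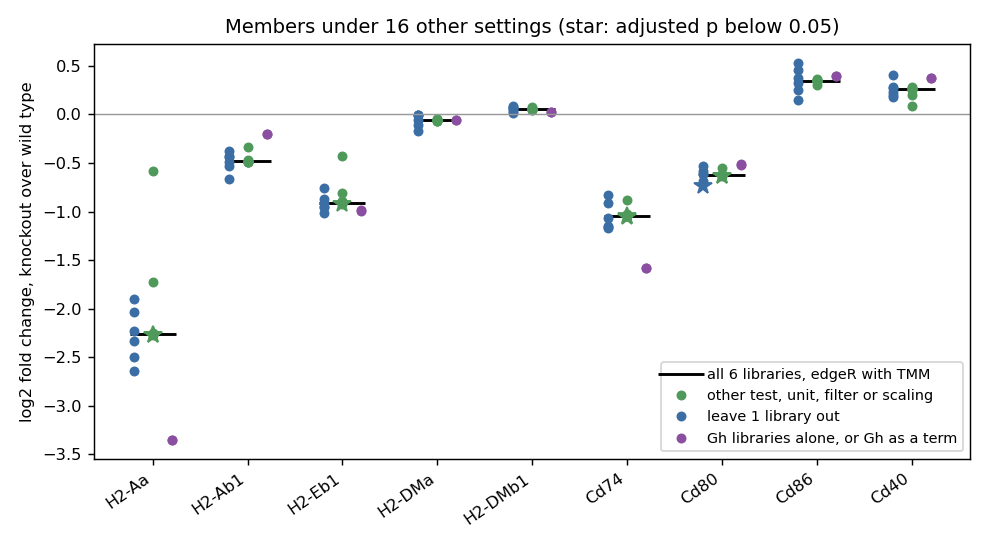
Log2 fold change of each tested gene under 16 other settings (points) beside the fit of all 6 libraries with edgeR and TMM scaling (bar); stars mark an adjusted p below 0.05. Every gene keeps its direction in all 16 settings, and the size for H2-Aa runs from -3.35 to -0.58, the latter on the log2(FPKM + 1) scale.

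Levels between genes were compared per length. By mean FPKM over the 6 libraries the order was H2-DMb1 (10.9), Cd80 (7.51), Cd86 (6.06), H2-DMa (5.58), Cd74 (5.28), H2-Ab1 (1.91), H2-Eb1 (0.948), Cd40 (0.524), H2-Aa (0.444) and Ciita (0.0254). Ranges over libraries overlapped between neighbours in this order, except that the lowest Cd74 value (2.394) was just above the highest H2-Ab1 value (2.386) and the lowest H2-Aa value above the highest of Ciita. H2-DMb1 lay above 70.8% of tested genes and H2-Aa above 10.9%. The lengths behind FPKM are all exon bases in the table, 3798 for H2-Aa against 1128 in its longest annotated coding transcript. With the longest transcript as the length of each gene, its mean would be 1.49, above H2-Eb1 (1.10) and Cd40 (0.597). H2-DMa (9.59) would likewise pass Cd80 (8.76) and Cd86 (8.74), so the places of H2-Aa and H2-DMa depend on the length taken. H2-Ab1, at 4.04, would keep its place below Cd74 (6.29). H2-DMb1 exceeded H2-Ab1 on the FPKM scale by 4.68 to 4.86 times in wild types and by 5.59 to 8.48 times in knockouts.

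The other class II genes had few counts. H2-DMb2, the near copy of H2-DMb1, had 16 to 32 counts per library and a log2 fold change of -0.13 (adjusted p = 0.878, edgeR). Its mean of 0.621 FPKM was above that of H2-Aa (0.444), and the sequence it shares with H2-DMb1 limits this value too. H2-Ob and H2-Oa, the chains of the DO molecule that restrains DM, had 9 to 19 and 2 to 7 counts, and H2-Eb2 had 1 count in all. Of these 5 genes, 2 were tested and 0 called, with 0 at an unadjusted p below 0.05.

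Genes acting around class II molecules did not pass the threshold either, list by list, in edgeR's fit of all 6 libraries after the low-count filter. With edgeR on every gene with a count, 2 peptide processing genes and 2 turnover and partner genes were called. That fit also called 1 gene of the T cell side, and 3.2% of its genes. Without WT 3, edgeR called 1 turnover and partner gene, and 1.1% of all tested genes. In reading the lists, 16.6% of all tested genes had an unadjusted p below 0.05 in either direction by edgeR. DESeq2 called 2.65% of the genes it tested. Among 16 transcription factors tied to class II transcription, 0 were called, 1 had an unadjusted p below 0.05 and DESeq2 called 0. The list's median log2 fold change was 0.03. Rfx5, Rfxap and Rfxank, the RFX subunits that bind the X box, had log2 fold changes of -0.04, 0.09 and 0.14, and Nfya, Nfyb and Nfyc, which bind the Y box, had -0.02, -0.01 and -0.16. Spi1, a myeloid transcription factor, was at 86.3 ± 3.31 FPKM in wild types and 87.2 ± 6.01 FPKM in knockouts (SD, n = 3). For the interferon gamma pathway, which induces Ciita, 0 of 8 tested genes were called (2 at an unadjusted p below 0.05, 0 by DESeq2), and the ligand gene Ifng had 0 counts in all libraries. The receptor chains Ifngr1 and Ifngr2 were well expressed, at 85.2 ± 13.4 and 47.0 ± 2.22 FPKM in wild types and 99.0 ± 9.14 and 42.5 ± 2.40 FPKM in knockouts.

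Peptide processing genes ranged widely in level, with Ctsb, Ctsd and Ctss the most abundant and Ctse near that of H2-Aa per length. All knockouts lay above all wild types in 6 of 13 genes, where this held for 11.5% of all tested genes, and below them in 1. By edgeR 0 of the 13 were called, with 5 at an unadjusted p below 0.05 and 3 called by DESeq2, and the list's median log2 fold change was 0.13. Ctss, the protease that trims the invariant chain, was at 702, 735 and 644 FPKM in wild types against 811, 864 and 833 FPKM in knockouts. The genotypes did not overlap, and differed by 0.28 ± 0.07 on the log2 scale (SE; edgeR's adjusted p = 0.159). The FPKM ratio of Ctss to Cd74 was 76.7 to 117 in wild types and 211 to 339 in knockouts. Ctsb and Lgmn, further endosomal proteases, had log2 fold changes of 0.29 and 0.22 (adjusted p = 0.189 and 0.181), and Ctsd had 0.12.

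Turnover and partner genes of class II molecules were 8 tested and 0 called, with 5 at an unadjusted p below 0.05 and 2 called by DESeq2. Marchf1, the ubiquitin ligase that removes class II from the surface, had a log2 fold change of 0.16 (adjusted p = 0.246, edgeR), and Cd83, which opposes it, had 0.38 (0.277). Mif, a ligand of the CD74 protein, was at 96.1, 114 and 87.8 FPKM in wild types against 78.8, 75.2 and 78.5 FPKM in knockouts, without overlap (-0.35 ± 0.09 SE, adjusted p = 0.161). Cd44, which signals with CD74, was at 29.0 ± 6.87 and 21.0 ± 2.14 FPKM in wild types and knockouts (SD, n = 3; adjusted p = 0.216).

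For other costimulatory and inhibitory ligands, 0 of 10 tested genes were called (4 at an unadjusted p below 0.05, 0 by DESeq2), with a median log2 fold change of -0.01. The most abundant were Lgals9, Vsir and Cd48, at -0.01, -0.02 and 0.08. In CD40 signalling 0 of 11 were called, with 1 at an unadjusted p below 0.05 and 0 by DESeq2, and the largest value was 0.31 for Birc2. On the T cell side, 8 of 10 genes were under 0.5 FPKM in every library, and Cd3e, Ctla4 and Cd40lg had 0 counts. Cd28 was the most abundant of them, at 5.55, 4.66 and 4.21 FPKM in wild types against 3.64, 3.31 and 3.56 FPKM in knockouts. All its knockouts lay below the wild types (-0.45 ± 0.11 on the log2 scale, SE; edgeR's adjusted p = 0.159). Of this list 3 genes were tested, Cd4, Lag3 and Cd28, and the CD3 genes were not. By edgeR 0 of the 3 were called, with 2 at an unadjusted p below 0.05, and DESeq2 called 1 of the list.

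**Figure D5:**
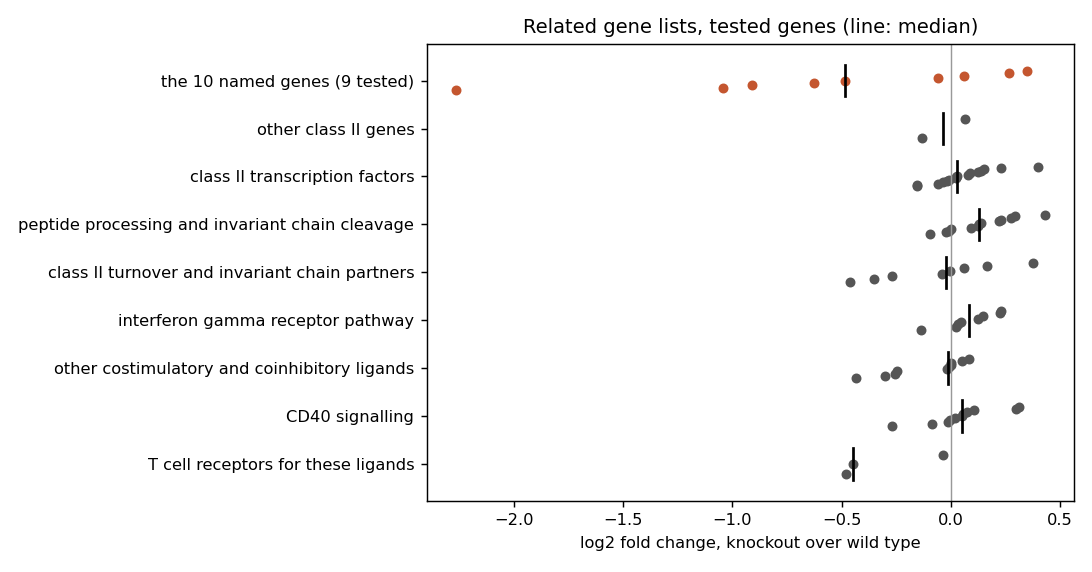
Log2 fold changes of the tested genes of each list (points) with the list's median (line); the first row holds the 9 tested members. The members spread from -2.26 to 0.35, while the 16 transcription factors lie between -0.16 and 0.40.

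Markers of antigen-presenting cells stood as follows beside the class II values. Dendritic cell markers Xcr1, Clec9a, Cd209a, Itgax, Batf3 and Ccr7 were under 0.5 FPKM in every library, and the 10 conventional dendritic cell markers summed to 369 to 442 FPKM in wild types and 489 to 556 FPKM in knockouts, nearly all of it from Cst3. Clec10a of that list, a lectin gene that macrophages also express, was at 9.91, 4.53 and 13.8 FPKM in wild types against 20.1, 22.8 and 16 FPKM in knockouts, all knockouts above all wild types (log2 fold change 1.07, adjusted p = 0.2002, edgeR). B cell markers summed to 13.49 to 17.96 FPKM in wild types and 18.7 to 20.1 FPKM in knockouts, most of it from Ebf1, which stromal cells also express. The pan-leukocyte list summed to 1895 to 1921 FPKM in wild types and 1885 to 2009 FPKM in knockouts. Monocyte markers summed to 1071 to 1281 FPKM in wild types and 973 to 1061 FPKM in knockouts, mostly from Fn1, which was at 850 ± 120 FPKM and 715 ± 41.5 FPKM (SD, n = 3). No conventional dendritic cell or monocyte marker was called by edgeR over the 15478 tested genes, and the monocyte markers differed among themselves. Cx3cr1 was at 8.88, 20.0 and 7.62 FPKM in wild types against 5.99, 3.42 and 2.82 FPKM in knockouts (log2 fold change -1.57, adjusted p = 0.162, edgeR). Ms4a4c had the opposite sign, at 8.72 ± 2.35 against 14.3 ± 3.18 FPKM (SD, n = 3; log2 fold change 0.72, adjusted p = 0.196), as had Ly6c2 and Ccr2, at 0.65 and 0.57. The 11 macrophage markers had a median log2 fold change of 0.13, with 9 positive and 2 negative. In 3 all knockouts lay above all wild types and in 1 below, where this held for 11.5% and 10.4% of all tested genes. Of the 11 only Cd163 was called, and it fell (log2 fold change -0.74, adjusted p = 0.0486, edgeR). Without WT 1, A, B or C it was not called (adjusted p of 0.112, 0.0717, 0.240 and 0.109). Of 9 plasma cell markers 7 were tested, with 6 positive and a median log2 fold change of 0.40. The 2 called by edgeR, Jchain and Igha, rose (3.75 and 3.51, adjusted p = 0.0141 for each), while Prdm1 had -0.15. Mzb1 and Tnfrsf17 were under 0.5 FPKM in every library. The osteoclast gene Atp6v0d2 also rose (log2 fold change 1.06, adjusted p = 0.0318, edgeR). Neither Jchain nor Igha was called without B or C, nor Atp6v0d2 without WT 1 or any single knockout. Of marrow stroma, neutrophil, endothelial, plasmacytoid dendritic cell and pan-leukocyte markers edgeR called 0. DESeq2 called 1 stromal, 1 plasmacytoid dendritic cell, 1 conventional dendritic cell and 1 monocyte marker, and 2.65% of the genes it tested. With edgeR on every gene with a count, 6 stromal, 2 neutrophil and 1 plasmacytoid dendritic cell marker were called. That fit also called 2 conventional dendritic cell and 2 monocyte markers, and 3.2% of its genes. The 10 stromal markers had a median log2 fold change of 0.73, with 8 positive. By edgeR 7 had an unadjusted p below 0.05, where 16.6% of all tested genes did. In 6 all knockouts lay above all wild types, which held for 11.5% of all tested genes. Cxcl12, a chemokine gene of marrow stroma, was at 328, 164 and 388 FPKM in wild types against 494, 594 and 571 FPKM in knockouts (log2 fold change 0.92, adjusted p = 0.192, edgeR). The part of these cells in the class II values was not tested.

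The tested genes whose centred log2 CPM over the 6 libraries lay nearest to the mean profile of the chain, invariant chain and DM genes were BC067074, Hs6st2, Lsp1, P2rx7 and Cacng7, with root mean square differences of 0.12, 0.13, 0.14, 0.14 and 0.15. Their direction follows from how they were chosen. Lsp1, a leukocyte actin-binding protein gene, was at 68.3 CPM in wild types and 46.6 CPM in knockouts on average (adjusted p = 0.101, edgeR), and Hs6st2, a heparan sulfate sulfotransferase gene, at 76.3 and 44.4 CPM (0.0787).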

How the data were processed

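RNA-seq was done on femoral marrow of 3 wild-type and 3 P2rx7 knockout mice, 1 library each. Per the labels' protocols, libraries were made from 1.3 µg of total RNA with a SMARTer kit. The submitters' processing notes name the builds GRCm38 and mm10. No source used here gives the aligner, counter or strand setting. The deposited table holds raw counts per gene symbol, and the deposited FPKM values equal count over exon length and over an effective library size in 100% of values above 0 (relative tolerance 1e-05).

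Counts were fitted over the whole table with edgeR 4.0.16 in R 4.3.3 (filterByExpr, TMM, glmQLFit and glmQLFTest, two-sided), with Benjamini-Hochberg adjustment over 15478 tested genes and a threshold of 0.05. The script was tested on simulated data. DESeq2 1.42.0 and limma 3.58.1 served as alternatives, among 16 settings. Exact binomial intervals and the floor of 3 counts cover counting error alone. Nothing in the labels says more of the mice, so p-values measure the spread between these samples. Centred profiles used log2 CPM with a prior count of 2.

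The members, the 21 gene lists and the settings were chosen with earlier results of these data known. The rule for named genes took all members, called list genes, otherwise the 3 most abundant of a list, all other class II genes and class II transcription factors, and the 5 genes nearest in profile. Further genes named from the lists (Marchf1, Cd83, Birc2, Ctse, Cx3cr1, Clec10a, Ms4a4c, Ly6c2, Ccr2 and single markers) were chosen after their values were seen. One marker gene of the lists is not reported here.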

Additional observations from a re-analysis of the deposited data

How the results depend on the processing

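All 9 tested members kept their direction under the 16 alternatives. The count of members called was 0 on all libraries, 3 with DESeq2, 4 with every gene with a count, and 0 to 1 when single libraries were left out, where the 1 was Cd80 without WT 3. It was 0 under the other alternatives. Over all tested genes the count of 16 became 970 with every gene with a count, 506 with DESeq2, 8 with a mean CPM of at least 1, 10 with limma on log2(FPKM + 1), 2 with limma on log2(FPKM + 0.1), and 0 to 172 without single libraries, the 0 without knockout B or C (1468 and 1772 genes at an unadjusted p below 0.05, edgeR). It was 0 among libraries with Gh counts and 0 with Gh presence as a term (edgeR, with 668 and 894 at an unadjusted p below 0.05). P2rx7 kept its direction, at -0.69 to -0.65 without single libraries, -0.64 among libraries with Gh counts (adjusted p = 0.516, edgeR) and -0.64 with Gh presence as a term (0.112), and was not called in these last fits or without knockout B or C. The cause of these shifts was not tested. Low counts limit Ciita, which was not tested, and H2-Aa.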

Other observations

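Between H2-DMa and H2-Eb1 on chromosome 17 (34119541 to 34316674, GRCm38) the table holds 17 genes, of which 11 were tested and 0 called by edgeR. Genes of the class I peptide supply lie between the DM and chain genes, and they were picked here after their values were seen. Psmb9 and Psmb8, subunits of the immunoproteasome, were at 6.39 ± 0.404 and 13.2 ± 0.399 FPKM in wild types and 7.94 ± 0.372 and 16.1 ± 0.680 FPKM in knockouts (SD, n = 3). Tap1 and Tap2, the chains of the peptide transporter, were at 15.4 ± 1.33 and 10.2 ± 0.409 FPKM in wild types and 18.8 ± 1.08 and 12.4 ± 0.518 FPKM in knockouts. In each of these 4 genes all knockouts lay above all wild types, which held for 11.5% of all tested genes, with log2 fold changes of 0.28 to 0.32 and adjusted p-values of 0.112 to 0.159 (edgeR). H2-Ab1, H2-Aa and H2-Eb1, which follow them along the chromosome, had all knockouts below all wild types, which held for 10.4% of all tested genes.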
